A study of Arabidopsis thaliana with 4 samples.

Results

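Jasmonate synthesis, turnover and signaling were followed through 36 *Arabidopsis thaliana* genes in RNA from the roots of *atx1setm* seedlings and of their wild type, WT (Ws). The genes were taken by locus from the deposited gene table, which lists 28642 loci, and cover 12 enzymes of jasmonate synthesis, 4 of jasmonate conjugation and turnover, 12 *JASMONATE ZIM-DOMAIN* (*JAZ*) repressors, 6 genes of the receptor, its adaptor and basic helix-loop-helix (bHLH) factors, and 2 vegetative storage proteins. All 36 had enough reads to be tested, among 20714 genes tested in all. WT was the accession Wassilewskija with no transgene, and *atx1setm* was the *atx1-1* mutant in the same accession carrying an *ATX1* transgene whose SET domain, the part of this histone methyltransferase that transfers the methyl group, had been made catalytically inactive. For that transgene no promoter or number of lines was found in the sources used, nor the number of seedlings behind each library. The labels give an age of 10 days after germination for both genotypes. The paper gives a range with this age as its upper end for the RNA and its sequencing. A further sentence of its methods states a younger age for the sequenced roots. Each genotype had 2 libraries, called biological replicates 1 and 2 in the labels. A p-value here sets the difference between genotypes against a spread estimated from 2 libraries per genotype, with information shared across genes.

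Jasmonates are hormones made from α-linolenic acid. In the plastid, 13-lipoxygenases (LOX), ALLENE OXIDE SYNTHASE (AOS) and ALLENE OXIDE CYCLASES (AOC) act in turn to give 12-oxo-phytodienoic acid, which OPR3 reduces in the peroxisome and which OPCL1 and acyl-CoA oxidases such as ACX1 then prepare for and pass through β-oxidation. JAR1 joins jasmonic acid to isoleucine, and this conjugate brings the F-box protein COI1 together with JAZ proteins, which are then degraded. JAZ proteins otherwise hold MYC2 and related bHLH activators inactive, with NINJA linking them to TOPLESS corepressors. Most *JAZ* genes are themselves targets of the MYC factors, as are the CYP94 enzymes that oxidize the active conjugate, and wounding or touch induces both within minutes to hours. VSP1 and VSP2 are acid phosphatases that serve as classical jasmonate-response markers, mainly in shoots.

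MYC factors bind the G-box, CACGTG, so that the 250 bases before the annotated start of each gene were searched for this motif and for the G-box-like CACATG on either strand, where it can also read CATGTG. The G-box was present in 12 of the 36 genes (33.3%) and in 6 of the 12 *JAZ* genes (50%), whereas 7.58% of 28003 loci of the table held it in a window of the same length. The G-box-like motif was present in 7 of the 36 genes (19.4%) against 10.4% of all loci. *JAZ3* and *JAZ9* held both. Upstream windows are printed for the 3 repressors with the largest difference between replicates (*JAZ8*, *JAZ10* and *JAZ7*), for *JAZ12*, a repressor whose replicates lay close together, and for *VSP2*, the member with the smallest p between genotypes. They are in TAIR10 coordinates from the genome sequence of the RefSeq release of this assembly, 5′ to 3′ on the strand of the gene, with matches to either motif in capitals.

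JAZ8 (chr1:10596242-10596491, plus strand): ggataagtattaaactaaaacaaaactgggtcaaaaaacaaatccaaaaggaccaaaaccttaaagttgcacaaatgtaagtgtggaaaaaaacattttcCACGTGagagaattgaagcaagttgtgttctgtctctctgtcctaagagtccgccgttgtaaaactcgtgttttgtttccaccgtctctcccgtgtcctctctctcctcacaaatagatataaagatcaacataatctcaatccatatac
JAZ10 (chr5:4218638-4218887, plus strand): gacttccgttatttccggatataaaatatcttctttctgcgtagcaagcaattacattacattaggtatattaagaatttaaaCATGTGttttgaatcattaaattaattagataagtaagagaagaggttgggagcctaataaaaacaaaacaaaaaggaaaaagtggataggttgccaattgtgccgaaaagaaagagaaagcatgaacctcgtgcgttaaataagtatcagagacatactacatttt
JAZ7 (chr2:14572830-14573079, plus strand): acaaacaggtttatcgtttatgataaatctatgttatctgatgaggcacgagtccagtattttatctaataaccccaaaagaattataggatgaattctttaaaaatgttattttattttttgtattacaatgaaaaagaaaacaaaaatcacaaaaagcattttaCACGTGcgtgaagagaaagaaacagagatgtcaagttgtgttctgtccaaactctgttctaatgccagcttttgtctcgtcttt
JAZ12 (chr5:7090454-7090703, plus strand): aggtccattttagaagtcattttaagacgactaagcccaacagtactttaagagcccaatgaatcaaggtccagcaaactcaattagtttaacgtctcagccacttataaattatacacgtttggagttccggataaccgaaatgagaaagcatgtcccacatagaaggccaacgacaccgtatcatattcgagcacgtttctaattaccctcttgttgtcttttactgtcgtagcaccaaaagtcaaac
VSP2 (chr5:8502225-8502474, minus strand): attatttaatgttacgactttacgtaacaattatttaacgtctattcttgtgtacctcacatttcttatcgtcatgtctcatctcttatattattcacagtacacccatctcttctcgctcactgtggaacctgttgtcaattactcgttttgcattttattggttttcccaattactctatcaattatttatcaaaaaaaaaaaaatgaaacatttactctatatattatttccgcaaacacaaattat

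The G-box stood 150 bases before the start of *JAZ8* and 84 bases before that of *JAZ7*. *JAZ10* held 1 G-box-like match and no G-box, and *JAZ12* and *VSP2* held neither. A match is a description of these letters and not a mapped binding site.

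Exon reads per library ranged from 38574293 to 46439122, and levels are given as CPM (exon reads scaled to the library total and by TMM) unless stated. *ATX1* had 731 and 388 exon reads in WT and 475 and 270 in *atx1setm*, and its intron reads were 0 and 2 in WT and 44 and 43 in *atx1setm*, so the genotypes did not overlap in that readout. All 13 root markers, among them *SHR*, *SCR*, *PLT1* and *WER*, had reads in every library, with a summed level of 543 to 693 CPM. The 15 green shoot markers, such as the small subunits of Rubisco and the chlorophyll-binding proteins, were also read in every library, with summed levels of 249 and 441 CPM in replicates 1 and 2 of WT and 155 and 506 CPM in those of *atx1setm*.

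Levels per length were compared with the RPKM of the authors, averaged over the 4 libraries. *JAZ1* was highest at 185 RPKM, followed by *AOC3* (125.5), *JAZ2* (120), *VSP1* (114), *AOC4* (108) and *MYC2* (92.3). *AOC1* and *LOX2* were lowest, at 0.430 and 0.442 RPKM. The position of *JAZ1* rested on its replicate 1 libraries, with 350 and 233 RPKM there and 91.3 and 65.9 RPKM in replicate 2, so that its range over libraries spanned the means of the next 5 genes. *LOX2*, the lipoxygenase best known from wounded leaves, had a lower mean than *LOX6* (14.6 RPKM), *LOX4* (13.0 RPKM) and *LOX3* (5.09 RPKM) in these roots. The means of *LOX3* and *LOX4* also rested on replicate 1. In replicate 2 of WT and *atx1setm*, *LOX3* had 1.16 and 1.37 RPKM and *LOX4* 4.35 and 2.88 RPKM, against 0.588 and 0.348 RPKM for *LOX2*.

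**Figure D1:**
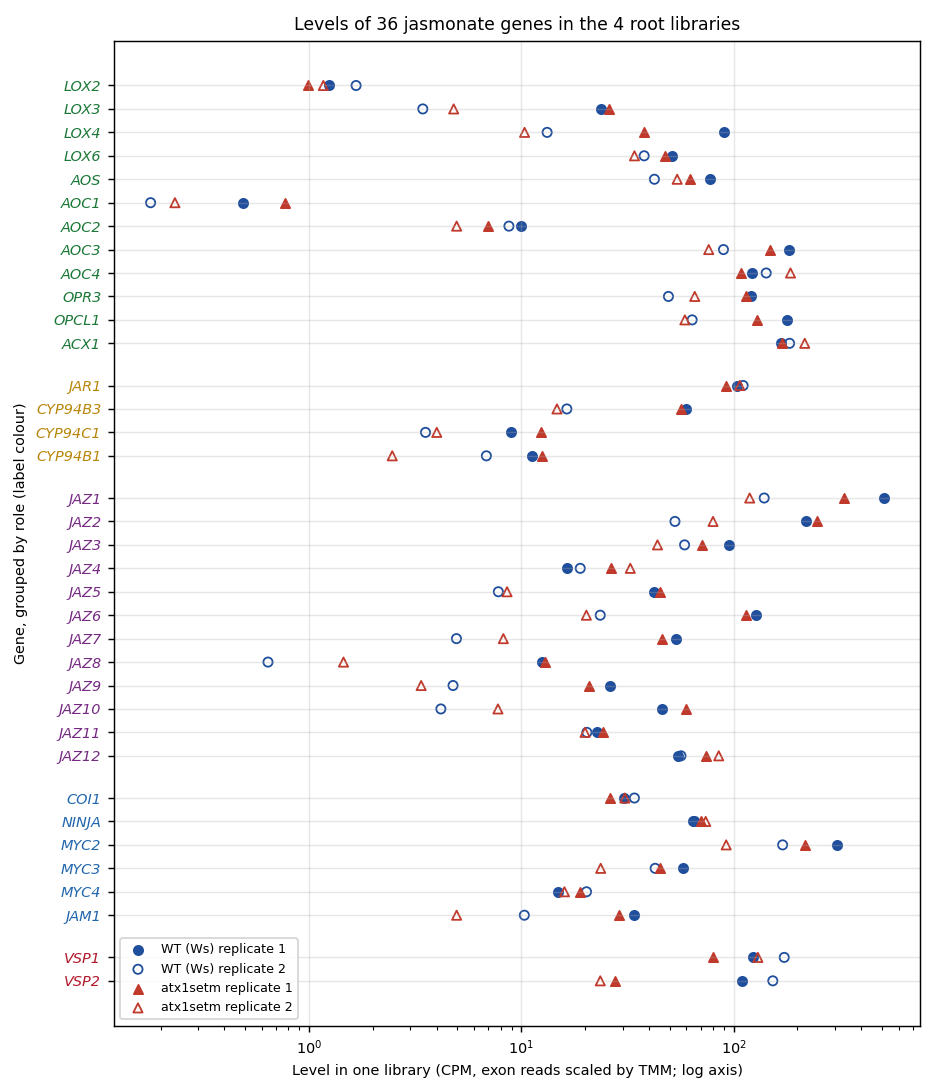
Level of each of the 36 genes (CPM on a log axis) in the 4 libraries, with replicate 1 as filled and replicate 2 as open symbols, circles for WT and triangles for *atx1setm*. For *JAZ8* both filled symbols lie near 12.6 and 12.9 CPM and both open symbols at 0.641 and 1.45 CPM, whereas for *VSP2* the circles and triangles separate by genotype.

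The libraries of these genes separated first by replicate number. In both genotypes, replicate 1 held the higher level for most *JAZ* repressors, for *LOX3* and *LOX4*, and for the CYP94 enzymes, by up to 19.6-fold. Of the 36 genes, 17 were at least 2-fold higher in replicate 1 than in replicate 2 of WT (3.75% of all genes tested), 17 were so in *atx1setm* (12.1% of all genes) and 15 were so in both (2.46% of all genes). None was at least 2-fold lower in replicate 1 of WT (1.43% of all genes), of *atx1setm* (7.58%) or of both (0.724%). By any amount, 25 of the 36 (69.4%) were higher in replicate 1 of both genotypes, compared with 39.7% of all genes. Each side of this comparison is 1 library, so it was not tested and no p-value is given. The labels do not say what a replicate number stands for. In RNA from whole organs, fewer cells of a type and less RNA per cell cannot be told apart.

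The median difference, replicate 1 minus replicate 2, was 0.86 on the log2 scale in WT and 0.95 in *atx1setm* over the 36 genes, compared with 0.00 and -0.03 over all genes tested. Across the 36 genes the differences in WT and in *atx1setm* correlated with a Pearson r of 0.91 and a Spearman rho of 0.91, compared with 0.71 and 0.74 across all genes. Genes are not independent replicates, and the points share the 2 libraries of each genotype and their depth. By the smaller of their ratios in the 2 genotypes, *JAZ8*, *JAZ10*, *JAZ7*, *JAZ9*, *JAZ6*, *LOX3* and *JAZ5* took places 5, 7, 17, 18, 19, 20 and 22 among the 20714 genes. The last gene inside the 2-fold limit was *OPCL1*, with a smaller difference of 1.14 on the log2 scale, and the first outside was *AOC3*, with 0.96.

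**Figure D2:**
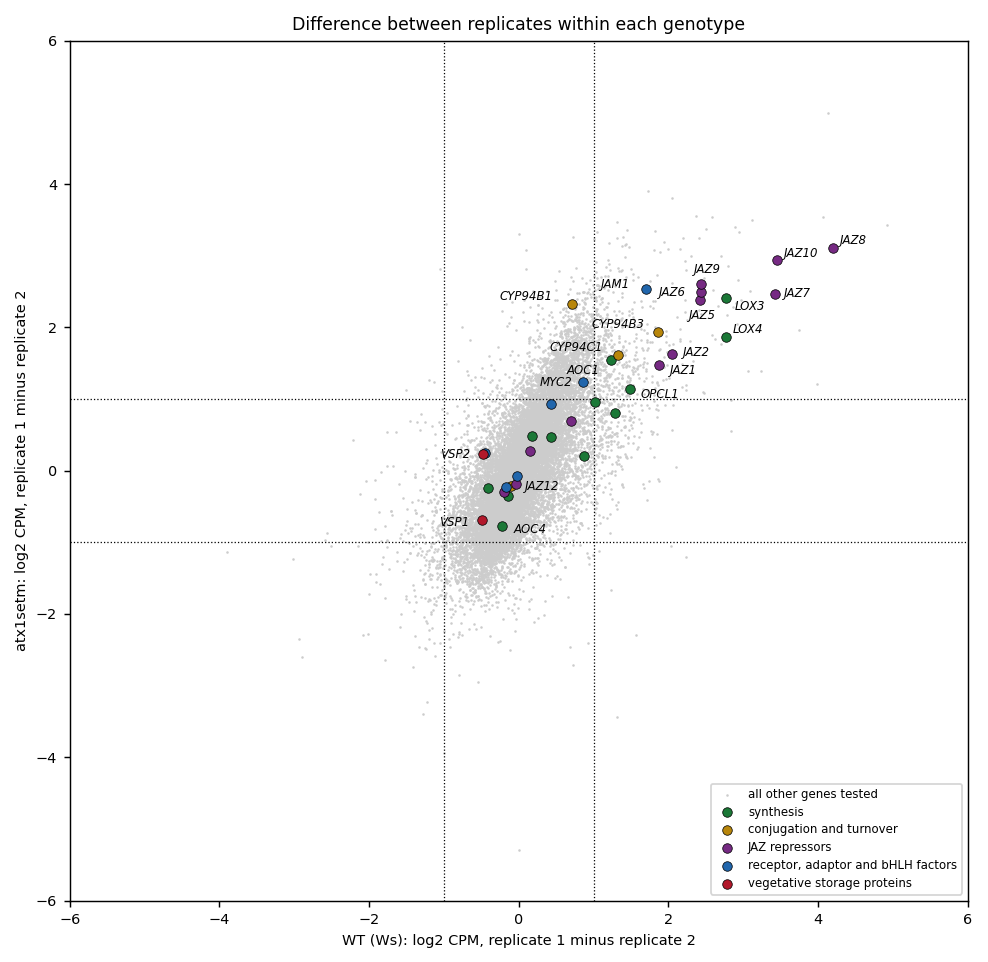
Difference between replicate 1 and replicate 2 (log2 CPM) in WT on the x axis and in *atx1setm* on the y axis, with the 36 genes coloured by role, all other tested genes in grey and dotted lines at 2-fold. The 15 genes past 2-fold in both genotypes, 8 of them *JAZ* genes, fill the upper right corner, whereas *VSP1*, *VSP2* and *AOC4* do not.

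The *JAZ* repressors showed the widest separation. Of 12, 8 were at least 2-fold higher in replicate 1 of both genotypes, with a median difference of 2.24 on the log2 scale in WT and 2.01 in *atx1setm*, and their summed level was 1226 and 393 CPM in replicates 1 and 2 of WT and 1072 and 430 CPM in those of *atx1setm*. *JAZ8* (AT1G30135), a repressor without the canonical degron that COI1 recognizes, had 12.6 and 0.641 CPM in replicates 1 and 2 of WT and 12.9 and 1.45 CPM in those of *atx1setm*. Both replicate 1 libraries were therefore 19.6-fold and 8.87-fold above their replicate 2, and the genotypes overlapped. The value of 0.641 CPM stands for 25 reads, against 620 in replicate 1 of WT. *JAZ10* (AT5G13220), whose splice forms differ in how readily they are degraded, had 46.0 and 4.18 CPM in WT and 59.6 and 7.77 CPM in *atx1setm*. *JAZ7* (AT2G34600), a repressor close in sequence to *JAZ8*, had 53.6 and 4.95 CPM in WT and 45.9 and 8.23 CPM in *atx1setm*. In both genes the 2 replicate 1 libraries stood next to each other and well above the replicate 2 libraries.

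*JAZ5* and *JAZ6*, a closely related pair, had the same order. *JAZ5* had 42.1 and 7.80 CPM in WT and 45.0 and 8.57 CPM in *atx1setm*, and *JAZ6* had 127 and 23.6 CPM in WT and 114 and 20.3 CPM in *atx1setm*. *JAZ9* had 26.1 and 4.77 CPM in WT and 20.8 and 3.38 CPM in *atx1setm*. In these 3 genes the ratio of replicate 1 to replicate 2 was between 5.25-fold and 6.16-fold in either genotype. *JAZ1*, the highest *JAZ* gene, had 510 and 139 CPM in WT, and its 331 CPM in replicate 1 of *atx1setm* was 2.78-fold above replicate 2. *JAZ2*, its nearest relative, had 219 and 52.9 CPM in WT and 247 and 80.0 CPM in *atx1setm*. The other 4 repressors did not share this separation. *JAZ3* was 1.62-fold higher in replicate 1 of each genotype, *JAZ11* was 1.11-fold and 1.21-fold higher, and *JAZ4* and *JAZ12* were lower in replicate 1 of both genotypes, at 0.870 and 0.809 times replicate 2 for *JAZ4* and at 0.971 and 0.875 times for *JAZ12*. With library totals in place of TMM, which shifted all genes in *atx1setm* by a median of 0.35 on the log2 scale, that of *JAZ4* in *atx1setm* (0.04) and those of *JAZ12* (0.03 in WT and 0.16 in *atx1setm*) turned upward.

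In the synthesis pathway, 4 of 12 genes were at least 2-fold higher in replicate 1 of both genotypes, with a median difference of 0.94 in WT and 0.65 in *atx1setm* on the log2 scale. They were the lipoxygenases *LOX3* and *LOX4*, the cyclase *AOC1* and the ligase *OPCL1*. *LOX3* (AT1G17420) had 23.7 and 3.44 CPM in replicates 1 and 2 of WT and 25.8 and 4.81 CPM in those of *atx1setm*. *LOX4* (AT1G72520) had 90.4 and 13.2 CPM in WT and 37.8 and 10.4 CPM in *atx1setm*. Both replicate 1 libraries lay above both replicate 2 libraries in each gene. *OPCL1* had 179 and 63.8 CPM in WT and 130 and 59.0 CPM in *atx1setm*. *AOC1* was near the limit of detection, with 24 and 7 exon reads in WT and 36 and 9 in *atx1setm*.

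*AOC3* was the synthesis gene with the highest mean RPKM and had 182 and 89.6 CPM in WT and 149 and 76.4 CPM in *atx1setm*, ratios of 2.03 and 1.95. *OPR3* was 2.44-fold and 1.75-fold higher in replicate 1, and *AOS* 1.82-fold and 1.15-fold. *LOX6*, the lipoxygenase known for xylem-associated expression, was 1.35-fold and 1.39-fold higher. Not every enzyme followed, since *AOC4*, *ACX1* and *LOX2* were lower in replicate 1 of both genotypes, at 0.586 to 0.908 times replicate 2, although *LOX2* in *atx1setm* turned to 0.10 on the log2 scale with library totals in place of TMM. *AOC1*, *AOC2* and *AOC3* lie side by side on chromosome 3 with no locus between them. Of their 50-base windows, 3.03%, 0.0967% and 2.03% occurred elsewhere in the genome. How reads that match several places were counted was not checked.

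Of the 4 conjugation and turnover genes, *CYP94B3* and *CYP94C1*, which hydroxylate and then carboxylate the active conjugate, were at least 2-fold higher in replicate 1 of both genotypes. *CYP94B3* had 59.9 and 16.4 CPM in WT and 56.6 and 14.7 CPM in *atx1setm*, with ratios of 3.66 and 3.84. *CYP94C1* had 8.96 and 3.54 CPM in WT, and its 12.3 CPM in replicate 1 of *atx1setm* was 3.09-fold above replicate 2. *CYP94B1* was 1.64-fold higher in replicate 1 of WT and 5.09-fold higher in that of *atx1setm*. *JAR1*, the conjugating enzyme and the highest of the 4 by mean RPKM, had 103 and 111 CPM in WT and 92.4 and 107 CPM in *atx1setm*, so its replicates were close and the genotypes overlapped.

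Among the receptor, adaptor and bHLH genes, *JAM1* alone was at least 2-fold higher in replicate 1 of both genotypes. *JAM1* (AT2G46510), a bHLH repressor that competes with MYC2 for its sites, had 33.8 and 10.3 CPM in WT and 28.8 and 4.96 CPM in *atx1setm*. *MYC2*, the main activator of the pathway, had 307 and 170 CPM in WT and 217 and 92.3 CPM in *atx1setm*, ratios of 1.81 and 2.35. The other 4 genes moved less. *MYC3* was 1.35-fold and 1.90-fold higher in replicate 1, *MYC4* was at 0.733 and 1.18 times, and *COI1* and *NINJA* were between 0.855 and 0.981 times replicate 2. The storage protein genes did not go with the *JAZ* genes: *VSP1* was at 0.711 and 0.618 times replicate 2, and *VSP2* at 0.717 and 1.17 times.

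Promoter motifs were compared with this split as a description. Of the 15 genes higher in replicate 1 of both genotypes, 6 (40%) held a G-box in the 250 bases before the start, and of the other 21, 6 (28.6%) did. The 6 were *JAZ1*, *JAZ2*, *JAZ7*, *JAZ8*, *JAZ9* and *OPCL1*. *JAZ5*, *JAZ6*, *LOX4*, *CYP94B3*, *AOC1* and *JAM1* were also at least 2-fold higher in replicate 1 of both genotypes and held neither motif in this window. *JAZ5* and *LOX3* are neighbours on chromosome 1 with 2 loci between them, and *JAZ6* and *LOX4* are neighbours on the same chromosome with 6 loci between them.

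Intron reads, which were not part of the levels above, were counted as a share of gene reads. Summed over the *JAZ* genes, intron reads numbered 628 and 129 in replicates 1 and 2 of WT and 462 and 68 in those of *atx1setm*, so they too were more numerous in replicate 1. As a share of *JAZ* gene reads this was 1.03% and 0.835% in WT and 0.915% and 0.409% in *atx1setm*. These gene reads include *JAZ1*, with 25129 and 5433 exon reads in WT and 15452 and 4585 in *atx1setm*. It could add no intron read, so the share also depends on how much of the total was *JAZ1*. Of the 22 jasmonate genes with at least 20 intron reads over the 4 libraries, 11 had a higher intron share in replicate 1 of both genotypes and 5 a lower one, while 56% of 8746 tested genes with this many intron reads had a higher share in replicate 1 of both. *OPR3*, with the most intron reads in replicate 1 of WT among the synthesis genes, had an intron share of 4.50% and 1.94% in WT and 2.78% and 0.473% in *atx1setm*. For 9 members, *JAZ1* among them, no intron read was counted in any library. Their exon length equals the span of the locus, so none could be counted. Reads across exon-exon junctions of *JAZ1* still numbered 539 and 95 in replicates 1 and 2 of WT and 334 and 87 in those of *atx1setm*.

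Other measures moved between the replicates as well. Of 19 early touch and wound genes, 5 were at least 2-fold higher in replicate 1 of both genotypes (*CML39*, *WRKY40*, *CML38*, *WRKY33* and *WRKY46*; 2.46% of all genes). At least 2-fold lower were 2 (*CBF1* and *CBF2*; 0.724% of all genes). Their median difference was 0.59 on the log2 scale in WT and -0.39 in *atx1setm*. By any amount, 9 were higher in replicate 1 of both genotypes (47.4%, against 39.7% of all genes). Summed levels were 1461 and 878 CPM in replicates 1 and 2 of WT and 698 and 695 CPM in those of *atx1setm*. None of the 19 was at 0 reads in any library. *WRKY40*, an early defence regulator, had 84.3 and 11.6 CPM in WT and 30.2 and 6.16 CPM in *atx1setm*. Of the 13 green shoot markers with enough reads to be tested, 6 were at least 2-fold lower in replicate 1 of both genotypes (0.724% of all genes). None was higher (2.46% of all genes), and none of the 15 listed was at 0 reads in any library. The part of touch and wound genes and of shoot markers in the replicate difference of the jasmonate genes was not tested.

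The pathway outside the 36 genes was described with 51 further jasmonate genes, from lipases and desaturases that supply α-linolenic acid to response factors, of which 45 were tested. Of these, 7 were at least 2-fold higher in replicate 1 of both genotypes (2.46% of all genes) and none was lower (0.724% of all genes). *JAZ13*, a divergent repressor, had 64 and 10 exon reads in WT and 78 and 6 in *atx1setm*. *ERF109*, an ethylene-response-factor gene induced early by jasmonate and reactive oxygen, had 74.1 and 12.2 CPM in WT and 41.1 and 7.12 CPM in *atx1setm*. *ERF1B* and *TAT3*, a tyrosine aminotransferase gene and jasmonate marker, had the same order. Over the 45 genes the median difference was 0.18 in WT and 0.41 in *atx1setm* on the log2 scale.

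The question the study put to these libraries was how root transcripts differ between *atx1setm* and WT. For the jasmonate genes, *VSP2* had the smallest p and the largest fold change of the 36, and it was lower in *atx1setm*. With p-values adjusted by Benjamini-Hochberg over 20714 genes, the quasi-likelihood test of edgeR passed 0 of the 36 genes at an adjusted p under 0.05 and 0% of all genes. At an unadjusted p under 0.05, 1 member was lower in *atx1setm* (*VSP2*, with 4.78% of all genes lower) and 1 was higher (*JAZ4*, with 4.93% of all genes higher). With DESeq2, and likewise with the exact test of edgeR, 1 member was lower at an adjusted p under 0.05, again *VSP2*, and 0 were higher. In all genes tested, 2.23% were lower and 1.69% higher by the exact test, and 1.75% and 1.46% by DESeq2. The median log2 fold change, *atx1setm* minus WT, was -0.11 over the 36 genes and -0.01 over all genes, with 14 members fitted higher and 22 lower.

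*VSP2* (AT5G24770; TAIR10 chr5:8500476-8502224, minus strand) had 110 and 153 CPM in WT and 27.6 and 23.6 CPM in *atx1setm*, a mean of 131 ± 30.6 against 25.6 ± 2.85 CPM (SD, n = 2 each). All *atx1setm* libraries lay below all WT libraries, and WT was 5.14-fold higher by the means. The log2 fold change was -2.36 (SE 0.28), with an adjusted p of 0.093 by edgeR's quasi-likelihood test, 3.07e-08 in the exact test of edgeR and 1.16e-07 with DESeq2. By its p, *VSP2* took place 85 among the 20714 genes. Intron reads, counted separately, numbered 214 and 214 in WT and 53 and 23 in *atx1setm*. Its fold change stayed between -2.58 and -2.09 over 15 alternative settings, and its adjusted p was under 0.05 in 7 of them, among which were edgeR's exact test, DESeq2 and each fit that left out 1 library.

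*VSP1* (AT5G24780), the next locus on the chromosome and the highest storage protein by mean RPKM, had 123 and 173 CPM in WT and 80.4 and 130 CPM in *atx1setm*. Here the genotypes overlapped, with a log2 fold change of -0.49 (SE 0.35) and an unadjusted p of 0.213 by edgeR's quasi-likelihood test. The difference between the fold changes of *VSP1* and *VSP2* was not tested. Of the 50-base windows of *VSP1* and *VSP2*, 0.379% and 0.294% occurred elsewhere in the genome.

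*JAZ4* (AT1G48500), a repressor of the same branch as *JAZ3* and *JAZ9*, had 16.5 and 19.0 CPM in WT and 26.4 and 32.6 CPM in *atx1setm*, with no overlap. Its log2 fold change was 0.74 (SE 0.25), with an unadjusted p of 0.032 and an adjusted p of 0.440 by edgeR's quasi-likelihood test, and it lay between 0.59 and 0.88 over 15 alternative settings. Its unadjusted p was 0.318 without replicate 1 of WT, 0.181 without replicate 2 of WT, 0.055 without replicate 2 of *atx1setm* and 0.0071 without replicate 1 of *atx1setm*. Its adjusted p was under 0.05 in 2 of the 15 settings. *JAZ12* had 54.9 and 56.5 CPM in WT and 74.5 and 85.1 CPM in *atx1setm*, also with no overlap, and a log2 fold change of 0.52 (SE 0.22) with an adjusted p of 0.558 in the same fit. The end of *JAZ12* overlaps a locus on the other strand by 28 bases, and no source used here states whether the libraries were stranded.

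In all, the genotypes did not overlap for 3 members that were lower in *atx1setm* (*LOX2*, *AOC2* and *VSP2*; 20% of all genes) and for 3 that were higher (*JAZ4*, *JAZ12* and *NINJA*; 19.6% of all genes), a share of the 36 below that of all genes in either direction. *AOC2* had 9.94 and 8.75 CPM in WT and 6.99 and 4.96 CPM in *atx1setm*, with an unadjusted p of 0.085 by edgeR's quasi-likelihood test. *LOX2* had 1.24 and 1.67 CPM in WT and 0.986 and 1.17 CPM in *atx1setm*. *NINJA* had 64.3 and 65.6 CPM in WT, close to the 70.0 and 73.9 CPM of *atx1setm*, with a fitted change of 0.15 on the log2 scale (SE 0.21).

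**Figure D3:**
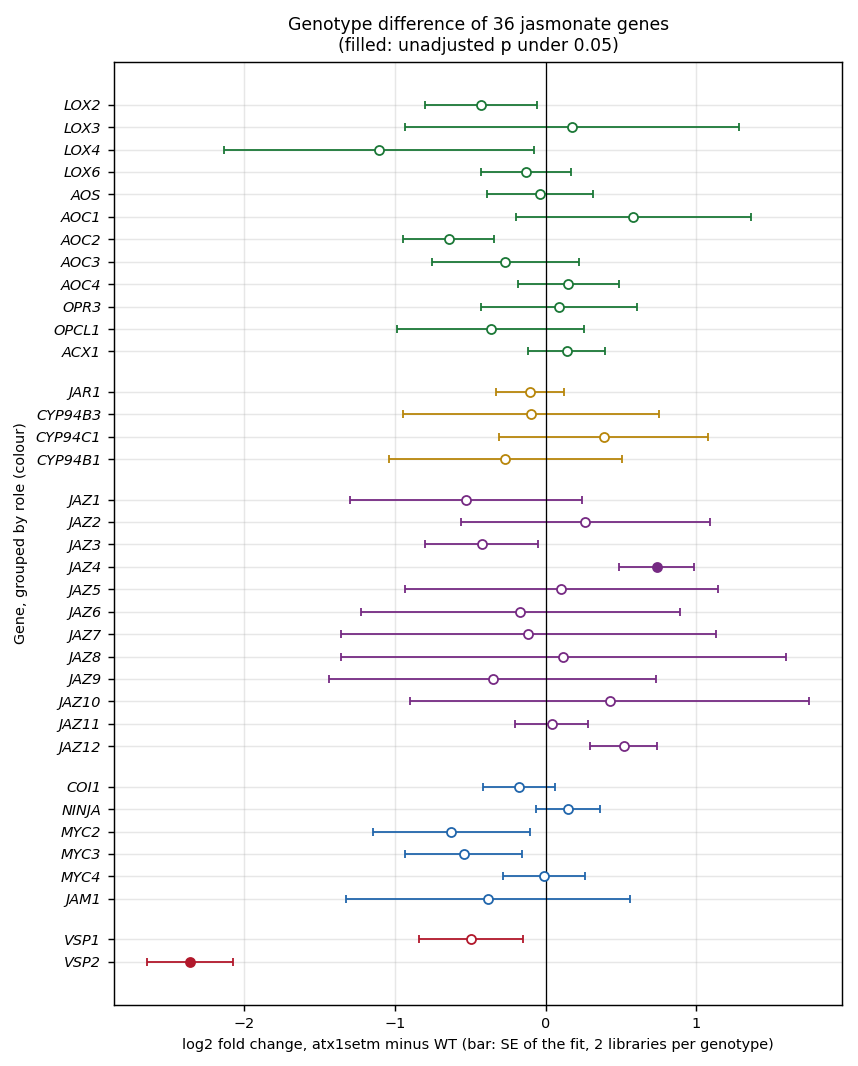
Log2 fold change of the 36 genes, *atx1setm* minus WT, with the SE of the fit as bars (2 libraries per genotype) and filled points at an unadjusted p under 0.05. *VSP2* at -2.36 and *JAZ4* at 0.74 are filled, and the bars of the genes split by replicate are wide and span 0, such as that of *JAZ8* with an SE of 1.48, except for *LOX4* at -1.10 with an SE of 1.03.

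The remaining members were set by their spread. *JAZ8* had a log2 fold change of 0.12 with an SE of 1.48, and *JAZ10* one of 0.43 with an SE of 1.32, so neither a rise nor a fall of several-fold could be told from 0 there. The median biological coefficient of variation was 0.370 over the 36 genes against 0.277 over all genes. By contrast, *JAR1* (log2 fold change of -0.10, SE 0.23), *JAZ11* (0.04, SE 0.24) and *COI1* (-0.18, SE 0.24) had close replicates. *MYC2* was fitted at -0.63 (SE 0.52) and *MYC3* at -0.54 (SE 0.39), with overlapping genotypes. With the replicate number as a block, their adjusted p was 0.038 and 0.047 by edgeR's quasi-likelihood test. In that fit 9.9% of all genes were lower at an adjusted p under 0.05, and no label ties the numbers to a shared batch.

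The genotype result of these genes depended on which library was in the fit. For genes split by replicate number this restates the replicate ratios above, since leaving out a replicate 1 library leaves that genotype only its replicate 2. Without replicate 1 of WT, 7 of the 36 genes were higher in *atx1setm* at an unadjusted p under 0.05 by edgeR's quasi-likelihood test and 1 was lower, in a table with 1.96% of genes higher and 2.15% lower. Without replicate 1 of *atx1setm*, 19 of the 36 were lower and 2 higher, in a table with 19.1% of genes lower and 17.2% higher. In such a fit the genotype left with 1 library is assumed to vary like the other. *JAZ8* then moved from 0.12 to 3.48 without replicate 1 of WT and to -2.19 without that of *atx1setm*, and *JAZ10* from 0.43 to 3.01 and to -1.69. *VSP2* stayed at -2.58 and -2.48, and *JAZ4* at 0.64 and 0.88.

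**Figure D4:**
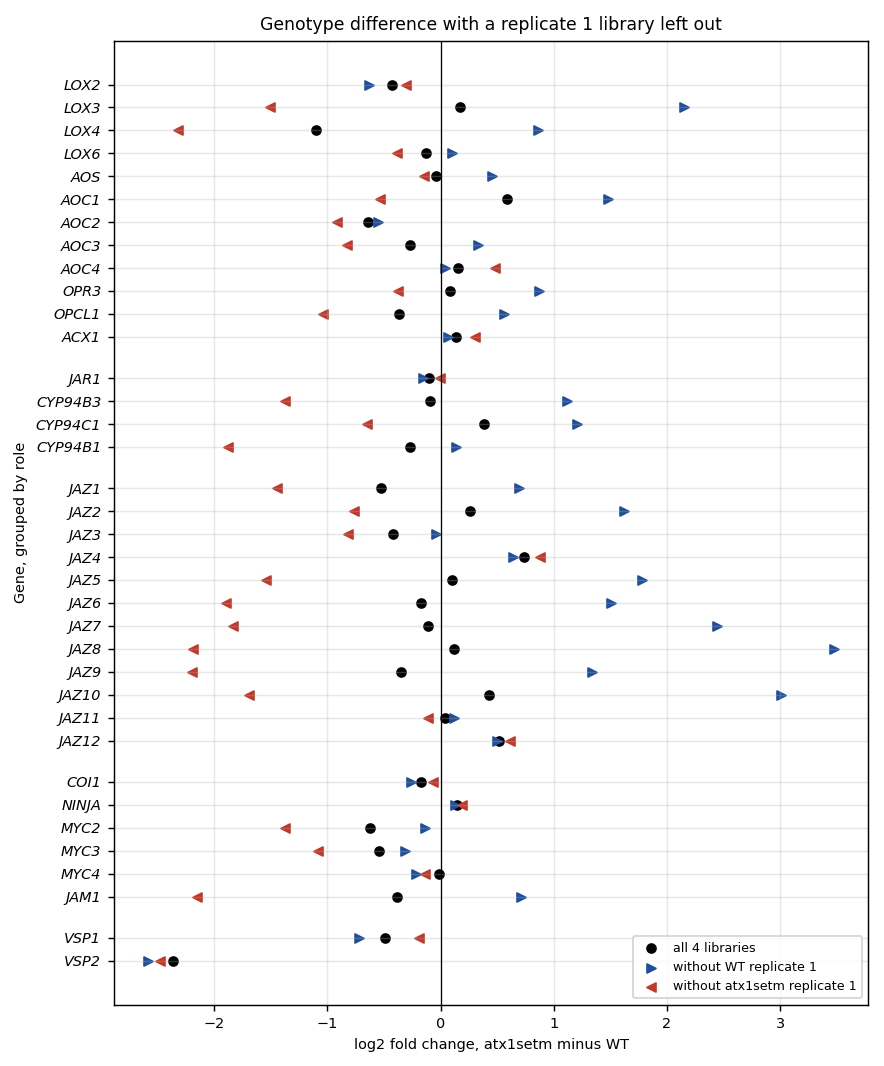
Log2 fold change of the 36 genes, *atx1setm* minus WT, with all 4 libraries (black circles), without replicate 1 of WT (blue, pointing right) and without replicate 1 of *atx1setm* (red, pointing left). For *JAZ8* the 3 values are 0.12, 3.48 and -2.19, on both sides of 0, whereas those of *VSP2* lie between -2.58 and -2.36.

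Among the 45 further jasmonate genes tested between genotypes, 0 passed an adjusted p of 0.05 by edgeR's quasi-likelihood test or by DESeq2 and 1 did by edgeR's exact test, while 2 were lower and 2 higher at an unadjusted p under 0.05, compared with 4.78% and 4.93% of all genes. *JAT1* (*ABCG16*), a jasmonate transporter, had 8.58 and 6.67 CPM in WT and 3.36 and 2.70 CPM in *atx1setm*. It was fitted at -1.33 on the log2 scale (SE 0.31), with an unadjusted p of 0.0079 by edgeR's quasi-likelihood test, and was the gene called by the exact test. *ANAC019*, a jasmonate-responsive NAC factor, had 0.649 and 0.898 CPM in WT and 0.193 and 0.260 CPM in *atx1setm*. These levels of *ANAC019* rested on few exon reads, 32 and 35 in WT and 9 and 10 in *atx1setm*. *ORA59*, an integrator of jasmonate and ethylene responses, had 6.37 and 3.23 CPM in WT and 9.56 and 12.9 CPM in *atx1setm*. The genotypes did not overlap in these 3 genes, as in 20% of all genes with lower and 19.6% with higher levels in *atx1setm*. The fourth, *MYC5*, rested on 4 to 39 exon reads.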

How the data were processed

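The study sequenced polyadenylated RNA of whole roots. The authors mapped trimmed reads to TAIR10 in CLC Genomics Workbench. The counts used here are the total exon, intron and gene reads deposited per locus and library. The deposited RPKM was scaled by the authors to exon length and mapped reads. The p-value, FDR and fold change columns of the authors' own comparison were not used, nor were 53 of the per-sample columns. Strandedness was not stated in the labels or methods. RefSeq gives the symbols used for 33 of the 36 loci, and *TIFY10B* for *JAZ2*, *TIFY7* for *JAZ9* and *AIB* for *JAM1*.

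Exon reads were filtered by filterByExpr (20714 genes), scaled by TMM and compared between genotypes with the quasi-likelihood test of edgeR 4.0.16 (legacy fit, R 4.3.3), adjusted by Benjamini-Hochberg over all genes. The common biological coefficient of variation was 0.303. Replicate ratios are CPM ratios, called at 2-fold on the log2 scale with a prior count of 2. Alternatives were DESeq2 1.42.0, edgeR's exact test, limma 3.58.1 on log2 RPKM with 0.5 added, a replicate block, other filters, scalings and reads, and each library left out. Members without a non-overlap, a p under 0.05 or a shared 2-fold replicate ratio are given by ratio only, except the highest by RPKM in each role. The members and all gene lists were chosen with earlier results of these data known.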

Additional observations from a re-analysis of the deposited data

How the results depend on the processing

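The 15 genes at least 2-fold higher in replicate 1 of both genotypes, and the 17 of each genotype, stayed within 1.5 times under 8 alternatives. Of 969 values of single members over all alternatives, 796 stayed the same, 127 moved, 37 became called, 3 lost a call and 6 reversed. For a genotype fold change, staying the same meant keeping its direction and its side of an unadjusted p of 0.05. For a replicate ratio it meant keeping the sign with only a small change in value, and its side of the 2-fold limit was not checked. Values that moved include small shifts as well as changes of sign.

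Counts between genotypes were less stable. Leaving out each library in turn gave 0 to 2 members higher and 1 to 9 lower at an adjusted p under 0.05, and 0 to 7 higher and 1 to 19 lower at an unadjusted p, by edgeR's quasi-likelihood test. The shares of all genes ranged likewise, from 0.267% to 10.2% higher and 0.429% to 11.5% lower at an adjusted p, the highest without replicate 1 of *atx1setm*. Without replicate 1 of *atx1setm*, the log2 fold changes of *LOX3* (-1.50), *JAZ5* (-1.54), *JAZ8* (-2.19) and *JAZ10* (-1.69) reversed, against 2.15, 1.78, 3.48 and 3.01 without replicate 1 of WT. There *JAZ6* (1.51) and *JAZ7* (2.45) reversed, against -1.90 and -1.83 without replicate 1 of *atx1setm*. Counting uncalled members too, 12 and 9 of the 36 changed sign without replicate 1 and 2 of WT, and 9 and 14 without those of *atx1setm*. DESeq2 (1.75% of all genes) and the exact test (2.23%) called 1 member lower at an adjusted p under 0.05. With limma on log2 RPKM, 2 were lower at an unadjusted p under 0.05, with 5.04% of all genes. At an unadjusted p, the further jasmonate genes gave 1 higher with library totals in place of TMM (4.34% of all genes) or with limma (4.68%). With at least 10 counts in every library they gave 1 higher (4.47% of all genes) and 1 lower (4.34%). The touch and wound genes gave 1 lower under the robust test (4.71% of all genes) or with at least 10 counts (4.34%). The counts of both lists also differed between the fits without 1 library. Between replicates of both genotypes, a limit of 1.5-fold gave 12 further jasmonate genes and 8 touch and wound genes higher, a limit of 3-fold gave 2 and 0 touch and wound genes higher and lower, and RPKM gave 1 lower. The cause was not tested. Library totals without TMM shifted the median log2 difference between replicates of all genes by 0.35 in *atx1setm* and 0.07 in WT.

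A fit with the replicate number as a block called 1 member higher and 4 lower at an adjusted p under 0.05, with 8.87% and 9.9% of all genes, and 3 and 8 at an unadjusted p, with 14.3% and 16.1%. The adjusted p was 0.013 for *JAZ4*, which was higher, and 0.0047 for *LOX4*, 0.038 for *MYC2*, 0.047 for *MYC3* and 1.04e-19 for *VSP2*, which were lower. At an unadjusted p, 7 of the 45 further jasmonate genes were then higher and 7 lower, and 7 of the 19 touch and wound genes lower. Deviations of same-numbered libraries from their genotype means correlated at 0.71 over 20714 genes, but with 2 pairs and no label that ties a number to a shared batch or day, the numbers were not used as a pairing. The touch and wound settings, and those for replicate ratios of the further jasmonate genes, were added after seeing the data. With 2 libraries per genotype, depth limited the lowest members, such as *AOC1*.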
